A study of Mus musculus with 9 samples.

Results

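A set of 7 miRNAs typical of white blood cells was followed through mouse liver under a fatty diet and under metformin: mmu-miR-223-3p, mmu-miR-142a-3p, mmu-miR-142a-5p, mmu-miR-146a-5p, mmu-miR-150-5p, mmu-miR-155-5p and mmu-miR-342-3p (the mouse prefix mmu is left out from here on). They were taken by exact match of their names to the probe annotation of an Agilent mouse miRNA array, on which these 7 are among 1881 mouse miRNAs. Of the 7 members, 4 were above background on all arrays of at least 1 group and were tested with 139 other miRNAs. The other 3 were not detected on any array by the rule given below.

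Livers of male C57BL/6J mice, an inbred strain, were collected at 20 weeks of age, and 1 dye (Cy3) labelled the miRNA of each sample. All diets began at 3 weeks of age and lasted 17 weeks. Control mice were kept on chow throughout. Mice of the high fat diet group had feed that supplied 45% of energy as fat, with saline by stomach tube over the final 5 weeks. Mice of the metformin group shared that feed, and their stomach tube carried metformin, an oral drug that lowers blood glucose, at 3 mg/kg daily in those 5 weeks. The labels name no gavage for the control group. Each group had 3 arrays, and each array held pooled liver of 4 mice, so mice of a pool cannot be told apart and errors describe pools. In whole liver, fewer cells of a type and less of a miRNA per cell cannot be told apart.

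A miRNA is a short RNA that binds messenger RNAs, mostly through its seed, bases 2 to 8, and lowers their output. miR-223 is best known from neutrophils and monocytes, and the miR-142 hairpin, which gives both a 3p and a 5p product, from nearly all blood cells. miR-150 marks mature lymphocytes, miR-155 is induced in activated lymphocytes and macrophages, and miR-146a is induced by inflammatory signalling and dampens it. miR-342 lies within Evl, a gene of actin regulation expressed in blood cells among others, and its 3p arm is common in lymphoid cells but not restricted to them. In liver, such miRNAs can come from resident macrophages, lymphocytes and infiltrating or circulating leukocytes.

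The mature sequences are shown because the array probes read these RNAs one by one and because shared seeds would tie members together as regulators. They are from RefSeq (build GRCm38.p6, 5′ to 3′, seed in capitals), which matched 6 of the 7 members. miR-150-5p is named only.
miR-223-3p: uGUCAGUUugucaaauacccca
miR-142a-3p: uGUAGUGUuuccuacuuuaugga
miR-142a-5p: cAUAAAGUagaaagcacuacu
miR-146a-5p: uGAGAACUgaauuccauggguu
miR-155-5p: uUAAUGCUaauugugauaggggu
miR-342-3p: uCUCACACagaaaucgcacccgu

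The 6 sequences carry 6 distinct seeds. Among the mature mouse miRNAs of that table, only miR-146a-5p shares its seed with another, miR-146b-5p, which has probes on the array and was not detected on any. In that build miR-223-3p lies at chrX:96242884-96242905 on the plus strand, within the long noncoding RNA gene F630028O10Rik. The arms of miR-142a lie at chr11:87756903-87756925 (3p) and chr11:87756867-87756887 (5p) on the plus strand, at the place of the annotated miRNA Mir142b. miR-146a-5p lies at chr11:43374435-43374456 on the minus strand, within no annotated gene other than its own. miR-155-5p lies at chr16:84714143-84714165 on the plus strand within its host gene Mir155hg. miR-342-3p lies at chr12:108658680-108658702 on the plus strand within Evl.

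Every member has 2 different probes, each printed as 15 spots per array. Parts of several arrays carried no signal: in strips running inward from the left or right edge of the array, spots of bright probes were dark. Such strips occurred on 6 of the 9 arrays, namely every control array, 2 of the high fat diet group and 1 of the metformin group. Spots in these strips were left out, which took 41.1% to 43.8% of spots from each control array, at most 53.6% from a high fat diet array and at most 31.1% from a metformin array. The strips therefore move with the groups, and differences named below are followed by their values from all spots where these change the sign or the call. A level here is log2 of the median spot intensity of a probe relative to a bright reference, the 75th percentile among 187 probes that every array detected, and levels under a floor of -4.62 were set to it. That percentile was 193 to 323 intensity units across arrays. A probe counted as detected on an array where over a share of 0.5 of its spots were well above background by the scanner software. The number of arrays limits the precision.

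Detection itself separated the members. miR-342-3p and miR-223-3p were detected on all 9 arrays, with 93 of 93 and 99 of 99 spots of their brighter probe well above background. miR-146a-5p and miR-142a-3p were each detected on 8 arrays, with 95 of 103 and 80 of 103 spots. The array on which both were missed is control replicate 1, where 3 of 8 spots for miR-146a-5p and 2 of 8 for miR-142a-3p were well above background. So without the strips control replicate 1 had 2 detected members and each of the other 8 arrays had 4. With all spots control replicate 1 and high fat diet replicate 1 each had 2, control replicate 2 had 3 and the rest had 4. The scanner software's own call per miRNA had miR-146a-5p present on control replicate 1 and absent on high fat diet replicate 1. Which arrays missed members therefore depended on the reading.

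miR-150-5p, miR-155-5p and miR-142a-5p were not detected on any array of any group. For miR-150-5p, 1 of 89 spots of its leading probe was well above background, and its median intensity ran from -2.84 to 0.70 across arrays. For miR-155-5p it was 1 of 101 spots, with intensities from -0.86 to 1.48. For miR-142a-5p it was 0 of 100 spots, with intensities from -0.28 to 2.28. Their second probes were not detected on any array either. Probes that were detected reached down to 9.61 to 15.2 intensity units, taken as the first percentile of detected probes on each array. No group difference can be given for these 3 members, and no level can be read below that limit.

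With the strips left out, miR-342-3p was the one member that passed the test in any of the 3 comparisons. In control livers its brighter probe read 34.8, 39.9 and 41.7 intensity units, in high fat diet livers 54.9, 65.4 and 76.3, and in metformin livers 49.8, 53.1 and 54.6. All 6 arrays of mice on the fatty diet lay above all 3 control arrays before any scaling. The bright reference was 193 to 225 units in control, 221 to 323 in high fat diet and 231 to 252 in metformin livers. Arrays of the fatty diet were thus mostly brighter in general, and unscaled values do not set miR-342-3p apart from that. How many other miRNAs separated before scaling was not tested. After scaling, the log2 level of miR-342-3p was -2.47, -2.47 and -2.43 in control, -2.01, -2.09 and -2.08 in high fat diet and -2.34, -2.12 and -2.12 in metformin livers. The control and high fat diet arrays did not overlap, and the metformin arrays lay between them.

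On the log2 scale miR-342-3p was -2.46 ± 0.02 (SD, n = 3) in control and -2.06 ± 0.04 (SD, n = 3) in high fat diet livers. The difference was 0.39 (SE 0.09, 95% interval 0.20 to 0.59), or 1.31-fold, with an adjusted p of 0.0174 in limma with Benjamini-Hochberg adjustment over the 143 miRNAs tested. Between these groups 14% of tested miRNAs passed, 4.2% upward and 9.79% downward, so 1 of the 4 tested members stood beside 20 of 143 in all. Among the 143, its difference was the 6th highest. Arrays of the 2 groups did not overlap for 37.1% of tested miRNAs. The call was lost with all spots, where the difference was 0.26 (SE 0.15, adjusted p 0.363) and arrays still did not overlap, as for 23% of the miRNAs tested there. Of all tested with all spots 6.47% passed. The call was lost in 12 of the 25 alternative settings in all. Of these 25, 9 kept the strip-free reading and left out 1 array each, and the call held in 8 of those 9. Most losses were therefore among the other settings. The sign was the same in all 25, with adjusted p from 0.0114 to 0.742.

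**Figure D1:**
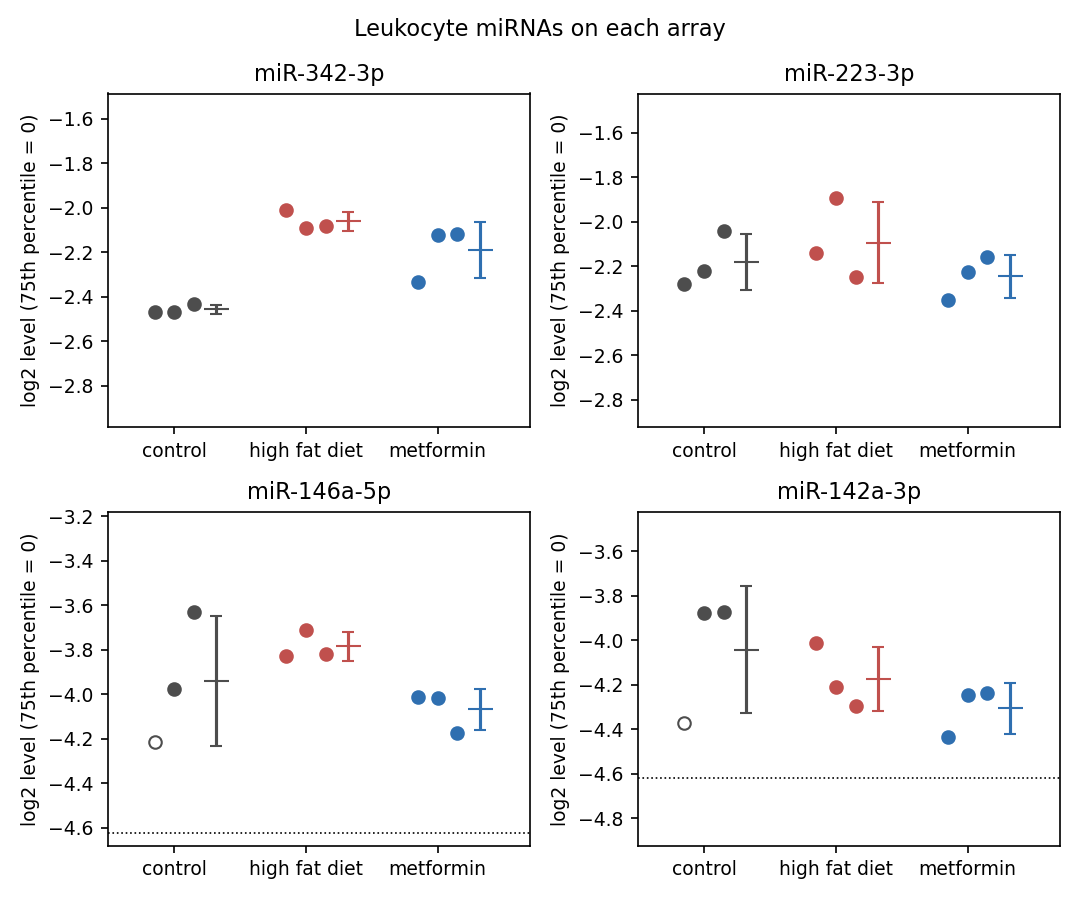
Levels of the 4 tested members on each array (points; y axis, log2 of intensity over the array's 75th percentile; x axis, group), with the group mean and SD beside them. Open points are arrays on which the probe was not detected and the dotted line is the floor at -4.62; miR-342-3p is the member whose control arrays (-2.47 to -2.43) all lie below the other 6.

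The second, dimmer probe of miR-342-3p was detected on all 9 arrays and served as an internal repeat. It read -3.80, -3.50 and -3.49 in control, -3.29, -3.35 and -3.30 in high fat diet and -3.57, -3.42 and -3.53 in metformin livers. Its high fat diet arrays lay above every control array and above every metformin array. The difference from control was 0.28, with an adjusted p of 0.0891 in limma when it took the brighter probe's place. Metformin minus control was 0.09 on this probe, and those arrays overlapped. Both probes read the same RNA samples and are not independent replicates.

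**Figure D2:**
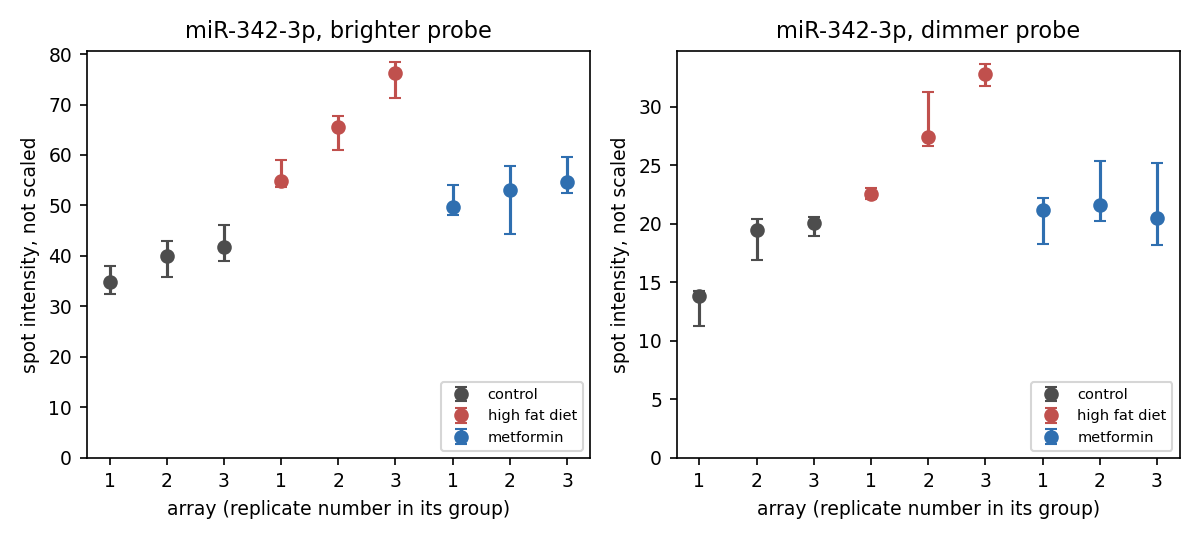
Unscaled intensity of both miR-342-3p probes on each array (points, median spot; bars, lower to upper quartile of spots; y axis from 0; x axis, replicate within group). For the brighter probe, control arrays read 34.8 to 41.7 and high fat diet arrays 54.9 to 76.3.

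Slide and position were checked for this difference. Of the 9 arrays, 8 lay on 1 slide and control replicate 3 lay on another. On the 8-array slide alone, that is without control replicate 3, the difference for miR-342-3p was 0.41 (adjusted p 0.0269 in limma). Within that slide, all 3 high fat diet arrays lay in row 1 and both control arrays in row 2, with the metformin arrays in both. Diet and row therefore cannot be told apart between the high fat diet and control arrays of that slide. The only control array in row 1 was control replicate 3, on the other slide. With the row as a block the difference was 0.62 (SE 0.16) and the adjusted p was 0.0834. Without high fat diet replicate 1 it was 0.40 with an adjusted p of 0.0677.

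How far a scaling shifts all miRNAs also bears on miR-342-3p. The median difference of all tested miRNAs between high fat diet and control was 0.03 without the strips, but -0.22 from all spots and 0.56 when the 75th percentile was taken over all probes. Relative to that median, miR-342-3p was higher by 0.37, 0.48 and 0.38 respectively. Over all 25 alternatives its excess over the median ran from 0.20 to 0.69. The split of all calls moved with the scaling too: 6 rose and 14 fell without the strips, 9 rose and 11 fell after quantile normalization, 1 rose and 8 fell from all spots, and 1 rose and 0 fell when every probe set the percentile.

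**Figure D3:**
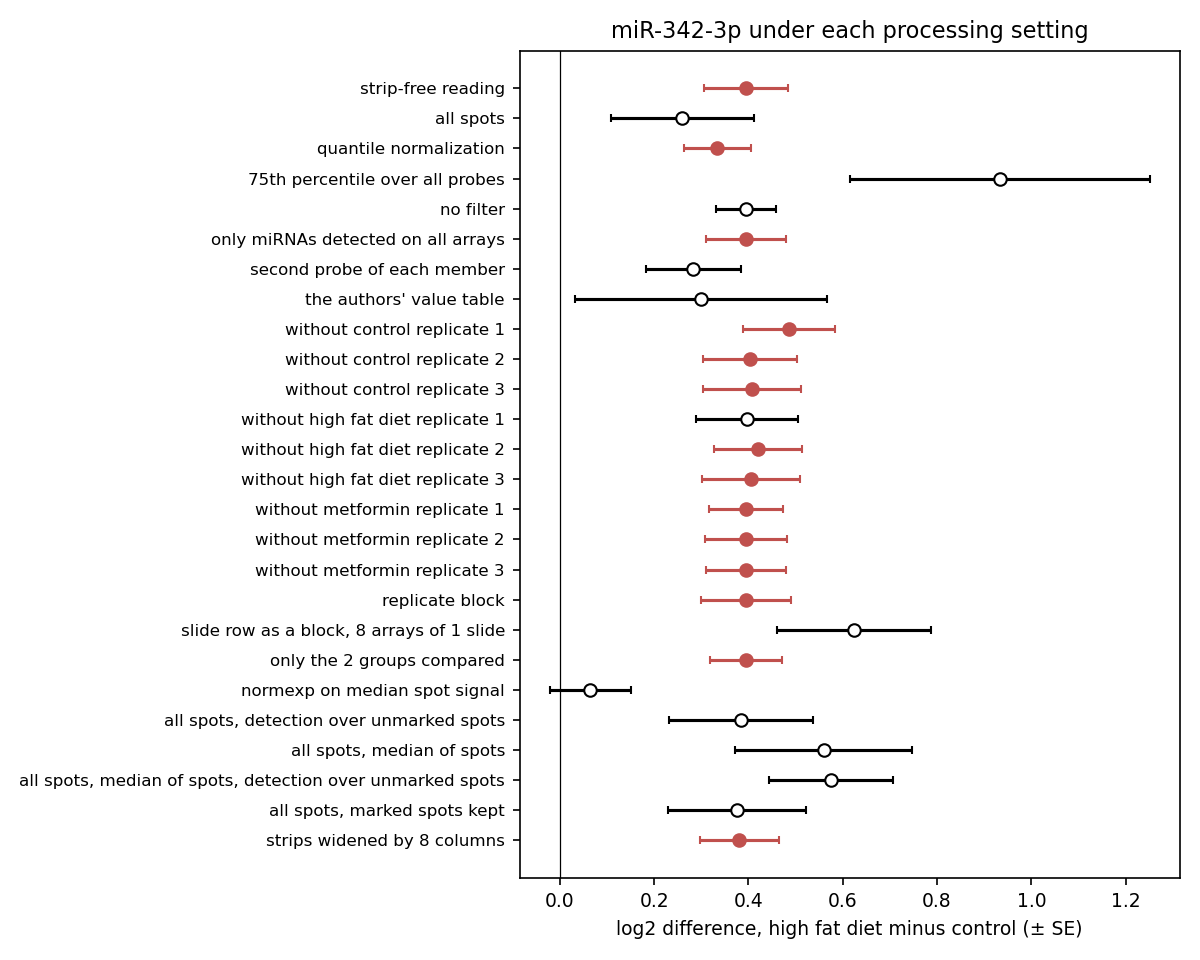
Difference of miR-342-3p between high fat diet and control under each processing setting (x axis, log2 difference; points, estimate; bars, SE; filled red where the adjusted p was under 0.05, open where it was not). All estimates lie above 0, from 0.06 to 0.93, and 13 of the 25 alternatives passed. Of those 13, 8 were among the 9 settings that only left out 1 array.

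Against untreated fatty-diet livers, metformin livers showed no member past the test. miR-342-3p was -2.19 ± 0.13 (SD, n = 3) under metformin, a difference of -0.13 from high fat diet (SE 0.09, 95% interval -0.33 to 0.07, adjusted p 0.613 in limma), with all 3 metformin arrays below all high fat diet arrays. Leaving out each array in turn moved it between -0.17 and -0.06, the latter without metformin replicate 1. Such separation was seen in 20.3% of tested miRNAs, 1.4% passed the test and 9.09% had an unadjusted p under 0.05, among them 0 of the 4 members. With all spots the difference had the opposite sign, 0.20, and the arrays overlapped. Against control, miR-342-3p was 0.26 higher under metformin (SE 0.09, 95% interval 0.07 to 0.46, adjusted p 0.154), again without overlap, as were 25.9% of tested miRNAs. Of all tested in that comparison 1.4% passed and 21% had an unadjusted p under 0.05, among them 1 of the 4 members, miR-342-3p. With all spots that difference was 0.46 (SE 0.15, adjusted p 0.203), and on the dimmer probe it was 0.09 with overlap. Both fatty-diet comparisons use the same control arrays.

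miR-223-3p, the myeloid member, overlapped between all groups. Its log2 level was -2.28, -2.22 and -2.04 in control, -2.14, -1.89 and -2.25 in high fat diet and -2.35, -2.23 and -2.16 in metformin livers. The highest array was high fat diet replicate 2, while another array of that group, replicate 3, lay below 2 of the control arrays. The difference between high fat diet and control was 0.09 (SE 0.11, 95% interval -0.17 to 0.34, adjusted p 0.628 in limma). That interval leaves room for a change from 0.892-fold to 1.26-fold. Metformin minus high fat diet was -0.15 (95% interval -0.40 to 0.10, adjusted p 0.632) and metformin minus control was -0.06 (95% interval -0.32 to 0.19, adjusted p 0.764). With all spots the difference between high fat diet and control was -0.26 and metformin minus high fat diet was 0.03, both of the opposite sign, and high fat diet replicate 1 was not detected. The second probe of miR-223-3p was detected on 5 arrays and at the floor on 5, so no second reading of the differences could be had.

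miR-146a-5p sat nearer to background. Its log2 level was -4.21, -3.98 and -3.63 in control, -3.83, -3.71 and -3.82 in high fat diet and -4.01, -4.02 and -4.17 in metformin livers. The control arrays spanned both other groups, with the lowest and the highest of the 9 values. On high fat diet replicate 1 only 3 spots were left to read. The difference between high fat diet and control was 0.15 (SE 0.13, 95% interval -0.14 to 0.45, adjusted p 0.421 in limma). Metformin minus high fat diet was -0.28 (95% interval -0.58 to 0.02, adjusted p 0.435), and the arrays of these 2 groups did not overlap. The same held for 20.3% of all tested miRNAs and for 2 of the 4 tested members, this one and miR-342-3p. Metformin minus control was -0.13 (95% interval -0.43 to 0.17, adjusted p 0.588). With all spots the first 2 differences changed sign, to -0.57 and 0.24, with high fat diet replicate 1 at the floor.

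miR-142a-3p was the dimmest member tested. It read -4.37, -3.88 and -3.88 in control, -4.01, -4.21 and -4.30 in high fat diet and -4.44, -4.25 and -4.24 in metformin livers. The control arrays included both of the highest values and the second lowest, and they overlapped with each of the other groups. The metformin and high fat diet arrays overlapped as well. High fat diet minus control was -0.13 (SE 0.14, 95% interval -0.45 to 0.18, adjusted p 0.531 in limma), and -0.20 to -0.03 leaving out each array in turn. Metformin minus high fat diet was -0.13 (95% interval -0.45 to 0.18, adjusted p 0.715) and metformin minus control was -0.26 (95% interval -0.58 to 0.05, adjusted p 0.277). With all spots metformin minus high fat diet was 0.015. In intensity units it ran from 9.32 to 16.5, close to the lower limit of detected probes.

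**Figure D4:**
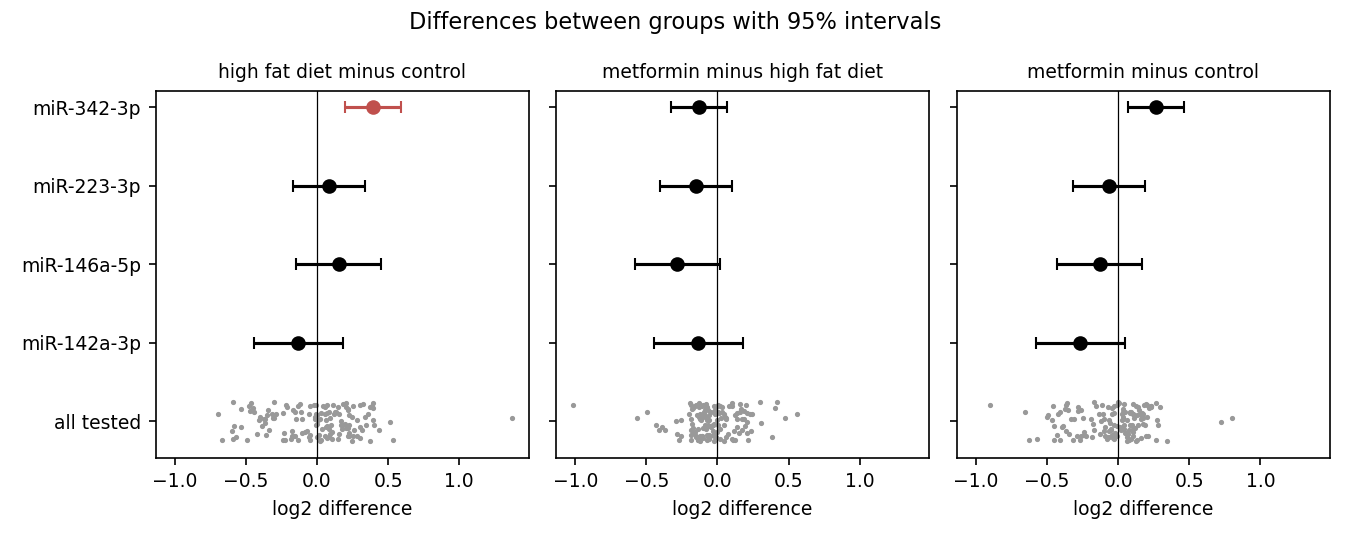
Log2 differences of the 4 tested members in the 3 comparisons (points, with 95% intervals; x axis, log2 difference; red, adjusted p under 0.05) above the differences of all 143 tested miRNAs (grey points, spread vertically for view). The interval of miR-342-3p in high fat diet minus control is 0.20 to 0.59; intervals of the other 3 members include 0 in every comparison.

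The 4 tested members differed in sign in 2 of the 3 comparisons. Between high fat diet and control, 3 of 4 differences were above 0 with a median of 0.12, beside a median of 0.03 over all 143 tested miRNAs. For metformin minus high fat diet, 0 of 4 were above 0 with a median of -0.14, beside -0.06 in all. For metformin minus control, 1 of 4 was above 0 with a median of -0.10, beside -0.00 in all. With all spots the members' medians were -0.29, 0.12 and -0.27, beside -0.22, 0.16 and 0.02 in all. The members' levels, summed without log as multiples of the 75th percentile, were 0.488 to 0.577 in control, 0.568 to 0.634 in high fat diet and 0.502 to 0.562 in metformin livers, so the control and high fat diet ranges overlapped.

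The wider set of immune miRNAs on the array gave little signal. Of 19 listed, which include the other arms of the same hairpins, the miR-181 family and miR-132-3p, 17 were not detected on any array. The sister arms miR-223-5p, miR-342-5p, miR-155-3p, miR-150-3p and miR-146a-3p were among those 17. The single one tested was miR-511-3p, made from an intron of a macrophage receptor gene. It read -3.48, -3.57 and -3.32 in control, -3.73, -3.49 and -3.69 in high fat diet and -3.79, -3.44 and -3.38 in metformin livers. Its differences were -0.18, 0.10 and -0.08 (adjusted p 0.316, 0.756 and 0.753 in limma) for high fat diet minus control, metformin minus high fat diet and metformin minus control. With all spots they were -0.45, 0.57 and 0.12, the last with the opposite sign, and the adjusted p values were 0.412, 0.479 and 0.937. miR-212-3p was detected on 2 metformin arrays only, with 7.58 to 12.9 intensity units across all arrays, near the lower limit of detected probes. With all spots it was detected on 1 metformin array, and the scanner software's own call had it on 3 arrays.

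The hepatocyte miRNA miR-122-5p, the most abundant one known in liver, was 6.64 ± 0.08 (SD, n = 3) on the log2 scale in control livers, and 5 of 5 hepatocyte miRNAs listed were tested with 0 passing in any comparison. Between high fat diet and control miR-122-5p differed by -0.10 (adjusted p 0.422 in limma) and by -0.58 with all spots (adjusted p 0.0682). Another of the 5, miR-148a-3p, was 0.37 higher in high fat diet livers without overlap (SE 0.12, adjusted p 0.0624), a difference close in size to that of miR-342-3p. With all spots it was 0.09 (adjusted p 0.765) with overlap. Blood left in the tissue can carry leukocyte miRNAs. Of 4 listed red cell miRNAs on the array, both arms of miR-144 were not detected and miR-486a-5p was detected on 1 array. The remaining one, miR-451a, read -1.57, -0.13 and -1.07 in control, -0.91, -0.53 and -0.99 in high fat diet and -1.72, -1.94 and -1.80 in metformin livers. It was lower under metformin than in high fat diet livers without overlap, by -1.01 (SE 0.29, adjusted p 0.158 in limma). With all spots that difference was -0.82 (adjusted p 0.383). Arrays of those 2 groups did not overlap for 20.3% of tested miRNAs. Metformin minus control was -0.90 (SE 0.29, adjusted p 0.150), also without overlap, as for 25.9% of tested miRNAs. The summed level of miR-451a was 0.337 to 0.915, 0.504 to 0.695 and 0.260 to 0.303 times the 75th percentile in the 3 groups. The part of leftover blood in the members' levels was not tested.

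Markers of other liver cells were read on the same arrays. Of 7 listed stellate and mesenchymal miRNAs 4 were not detected on any array without the strips, among them miR-143-3p, miR-145a-5p and miR-214-3p. With all spots miR-214-3p was detected on 1 array. The scanner software's own call had miR-143-3p and miR-214-3p on 3 arrays each. Of the 3 tested, miR-199a-3p passed between high fat diet and control with a difference of 0.31 (SE 0.08, adjusted p 0.0301 in limma). That call was lost with all spots, where the difference was 0.57 (SE 0.23, adjusted p 0.158) and the groups overlapped. The strip-free summed level of the 3 was 0.305 to 0.315 in control, 0.360 to 0.426 in high fat diet and 0.334 to 0.348 in metformin livers, without overlap. Among single tested miRNAs, 37.1% separated high fat diet from control, 20.3% metformin from high fat diet and 25.9% metformin from control. With all spots no sum was taken. In that reading miR-199a-3p overlapped in all 3 comparisons and miR-199a-5p was detected on 0 control arrays. Between high fat diet and control the endothelial miR-126a-3p differed by 0.18 (SE 0.10, adjusted p 0.214 in limma). With all spots miR-126a-3p differed by -0.42 (SE 0.36, adjusted p 0.518) with overlap. Its strip-free summed level was 2.62 to 2.93 in control, 3.13 to 3.19 in high fat diet and 2.69 to 3.28 in metformin livers. The part of these markers and of miR-148a-3p in the miR-342-3p difference was not tested.

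By the smallest root mean square distance between centred log2 levels over the 9 arrays, the miRNAs most like miR-342-3p were miR-350-3p (0.0805) and miR-425-5p (0.0924), where the median over 139 others was 0.217. miR-425-5p was 0.37 higher in high fat diet than in control livers (SE 0.09, adjusted p 0.0232 in limma), and miR-350-3p 0.35 higher (SE 0.11, adjusted p 0.0587). Both were picked for profiles that include the diet difference, so a similar difference was built into the choice. With all spots the call of miR-425-5p was lost (difference 0.16, adjusted p 0.623). The miRNAs most like miR-223-3p were miR-331-3p (0.0752) and miR-30e-5p (0.0901), with a median of 0.180. Nearest to miR-142a-3p were miR-19a-3p (0.118) and miR-500-3p (0.126), with a median of 0.241. Nearest to miR-146a-5p were miR-19a-3p (0.109) and miR-30e-5p (0.116), with a median of 0.220. No member was among another member's candidates, since members were left out of this search, and all points share their arrays.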

How the data were processed

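The 9 single-colour arrays (3 pools of 4 livers per group) were read from scanner output made with Agilent Feature Extraction 11.5.1.1 per the file headers; the submitters' processing notes name version 10.7. The authors' deposited spot intensity (background-subtracted, arbitrary units, not scaled between arrays, per the file headers) was the starting value. The authors' deposited table holds log2 values, which equal log2 of the software's total gene signal plus a constant per array (-2.35 to -0.71; 0 to 6 miRNAs per array departed by over 0.001). Its column medians were -5.67 to -4.03. Why the constants differ is unknown here, so the table served as an alternative only.

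Edge strips were found per array from probes whose 80th percentile of intensity was over 100. From each side inward, steps of 4 columns were left out until 2 neighbouring steps had under 10% of such spots below 50% of their probe's percentile. The median of the remaining spots without a non-uniformity mark was kept for probes with at least 3 spots on every array. Levels were scaled as described, floored at the first percentile of detected values (0.0406, log2 -4.62), and the probe with the higher mean level stood for each miRNA. A miRNA had to be detected throughout 1 group or more to enter limma 3.58.1 (R 4.3.3) which was fitted to the 9 arrays without covariates. A call is an adjusted p under 0.05. The fit and the strip search were tested on simulated data. No spot was saturated, no 2 arrays were identical, and p-values measure the spread between pools.

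The members, marker lists and the strip-free reading were chosen with earlier results of these data known. Named were all members, every tested miRNA of the immune list, tested markers of other cells, and the 2 nearest miRNAs of each tested member; markers not detected and single values of arrays were named after their values were seen. The all-spots reading (mean of spots without outlier marks, detection over all spots, 139 miRNAs tested) was kept among 5 versions because it gave the counts of an earlier analysis. The versions called 0 to 9 miRNAs between high fat diet and control. miR-342-3p passed in none of the 5 (adjusted p 0.0919 to 0.363). Alternatives were another scaling, filter, probe, background, spot choice and blocking, and leaving out each array.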

Additional observations from a re-analysis of the deposited data

How the results depend on the processing

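The count of members past the test between high fat diet and control, 1 without the strips, was 0 with all spots and each of its 4 other versions, the percentile over all probes, no filter, the second probe, the authors' deposited table, the slide row as a block, normexp and without high fat diet replicate 1. It was 1 in the other settings. For metformin minus control it was 3 with the percentile over all probes (miR-342-3p 1.08, miR-223-3p 0.75 and miR-146a-5p 0.68, beside a median of 0.80 over all tested miRNAs) and 0 otherwise, and for metformin minus high fat diet it was 0 throughout.

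The count of all miRNAs past the test between high fat diet and control (20) was 9 with all spots, 0, 0, 0 and 2 in its other versions, 1 with the percentile over all probes, 0 with no filter, the authors' deposited table or the slide row as a block, 8 with only the 2 groups compared and 13 with strips widened by 8 columns. Leaving out each array in turn gave 6 to 40, with 6 without high fat diet replicate 1 and 40 without control replicate 3. For metformin minus control (2) it was 98 with the percentile over all probes, 5 with the slide row, 0 with all spots and its other versions, no filter, the authors' deposited table or normexp, and 1 to 8 leaving out each array. For metformin minus high fat diet (2) it was 5 with only the 2 groups compared, 0 to 3 leaving out each array, and 0 with all spots and its other versions, quantile normalization, the percentile over all probes, no filter, the authors' deposited table, the replicate block, the slide row or normexp.

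Differences that changed sign, none of them called in either direction except those named above, were as follows. For miR-142a-3p, high fat diet minus control was 0.41 with the percentile over all probes, 1.01 in the authors' deposited table, 0.15 with the slide row and 0.0063 with the median of all spots. Its metformin minus control was 0.55 and 0.75 under the first 2 of these, and its metformin minus high fat diet was 0.015 with all spots, 0.14 with the percentile over all probes and 0.057 with normexp. For miR-146a-5p, high fat diet minus control was -0.57 with all spots and -0.47, -0.24, -0.17 and -0.25 in its other versions, -1.70 in the authors' deposited table and -0.21 with normexp. Its metformin minus control was 0.018 after quantile normalization, 0.68 with the percentile over all probes and 0.026 without control replicate 3. Its metformin minus high fat diet was 0.24 with all spots, 0.11, 0.040 and 0.061 in 3 of the other versions, 1.17 in the authors' deposited table and 0.0082 with normexp. For miR-223-3p, high fat diet minus control was -0.26 with all spots, -0.14, -0.84, -0.82 and -0.10 in its other versions, -0.0035 after quantile normalization, -0.092 in the authors' deposited table, -0.0037 without high fat diet replicate 2 and -0.10 with normexp. Its metformin minus control was 0.75 with the percentile over all probes, 0.0053 without control replicate 3 and 0.058 with the slide row, and its metformin minus high fat diet was 0.032, 0.67, 0.66 and 0.024 in 4 versions of all spots and 0.12 with the percentile over all probes. For miR-342-3p, metformin minus high fat diet was 0.20, 0.040 and 0.11 in 3 versions of all spots and 0.14 with the percentile over all probes. Leaving out each array, the differences that changed sign ran from -0.18 to 0.026 (miR-146a-5p, metformin minus control), from -0.0037 to 0.16 (miR-223-3p, high fat diet minus control) and from -0.11 to 0.0053 (miR-223-3p, metformin minus control). The causes of these changes were not tested.

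Same-numbered arrays deviated together in some pairs and in opposite directions in others. Correlations of their deviations ran from -0.236 to 0.433 and 3 of 9 were above 0.1. In all, 6 of 9 arrays correlated best with an array of their own number. No chance level was computed for that count, so no pairing is read from it. The labels do not pair the numbers, and they were not used as pairs. With the replicate block the difference of miR-342-3p was 0.39 (adjusted p 0.0330 in limma), and 22 miRNAs passed between high fat diet and control. Normexp on mean spot signal was not run, since the mean was not among the columns read, and median signal took its place. That setting, the widened strips and the 4 other all-spots versions were chosen after seeing the data, as was limiting the second-probe setting to miR-342-3p, since the other members' second probes failed the detection filter. Members near background were limited by signal, down to 3 spots on 1 array.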
